A study of Ovis aries with 24 samples.

Results

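The comparison described here set a pair of hind limb muscles, SM and semitendinosus (ST), against longissimus dorsi (LD), a muscle of the back, in wild-type (NN) lambs at 11 to 12 weeks of age (T12). Its members were chosen by the sample titles. Of the 24 bovine Affymetrix arrays of the series, 6 carry genotype NN at T12 from these muscles, with 2 arrays of SM, 2 of ST and 2 of LD. The labels spell out SM both as semimembranosus and as semitendinosus, so the code is kept. Source names of T12 samples also carry the words at birth, and the age in the titles is followed here. The lambs were Dorset, Suffolk and Rambouillet crosses without the callipyge mutation, the allele behind the muscle enlargement the series is about, and no treatment is given. The protocol describes the LD lambs as male. The study's stated purpose for these muscles was to find genes that go with fibre type, so that they could be told apart from genes of muscle enlargement. The 2 arrays of a group are technical repeats per the labels, so each muscle counts as 1 value, and how many animals stand behind it is not known here. Arrays of LD from the other genotypes at the callipyge locus (CC, NC and CN) and of supraspinatus (SS), a shoulder muscle, are quoted where they help to place a value.

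Skeletal muscles differ in their mix of slow, oxidative fibres and fast, glycolytic fibres, which carry different isoforms of myosin, troponin and the calcium pump. Oxidative fibres take up and burn more fatty acid, and heart-type fatty acid binding protein and lipoprotein lipase are known for this role in muscle. Muscles also differ in tendon and connective tissue content, and they keep the positional code of homeobox genes laid down in the embryo, which sets back muscle apart from limb muscle.

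A probe set was used when its signal, the brightness of the bovine probes on a linear scale, reached 200 in at least 1 of the 3 muscles. This left 5808 of 24016 probe sets, of which 522 passed only through SM or ST and 162 only through LD. The probe set nearest the limit from above had its highest signal at 200.001 (in SM) and the nearest from below at 199.746 (in ST). Gene symbols were given to 4193 probe sets, which cover 3568 genes, and 1586 had none. Median signals per array were 48.9 to 59.0 for SM and ST and 55.5 to 55.9 for LD. The log2 ratio of the 3′ to the 5′ GAPDH control probes, a measure of RNA integrity, was 0.11 to 0.22 in SM and ST and 0.19 to 0.25 in LD, so the groups overlapped. Skeletal muscle markers such as ACTA1, CKM, DES and MYOT were bright in all 3 muscles, and their summed signal overlapped between them. Technical repeats differed by a median of 0.238 on the log2 scale in SM, 0.249 in ST and 0.209 in LD. Group values differed by a median of 0.156 between SM and LD, 0.182 between ST and LD and 0.204 between SM and ST, so neither hind limb muscle was farther from LD than from the other. LD of the NC and CC genotypes lay 0.172 and 0.175 from LD of NN lambs, while SS lay 0.270 away.

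Hind limb muscle and LD were close, and 1 gene passed the test. The mean of SM and ST was compared with LD in a linear model (limma). Its spread came from SM against ST and from LD genotypes without the enlarged muscle. These were CC and NC at T12, and CC, NC and NN in newborns. The standard errors thus also hold differences among newborn LD groups. With a Benjamini-Hochberg adjusted p under 0.05 as the threshold, 1 of 5808 probe sets was called (0.0172%), for ANKRD1, and it was lower in SM and ST. At an unadjusted p under 0.05 there were 202, of which 130 were higher in SM and ST and 72 lower. The signal limit bears on this split, since 522 probe sets passed it only through SM or ST and 162 only through LD. With LD a single value, limma assumes that it varies as the other groups do. A rule of size that needs no such spread asked that SM and ST each lie at least 2-fold on the same side of LD and that all 4 of their arrays lie beyond both LD arrays. It found 9 probe sets higher in SM and ST (0.155%) and 8 lower (0.138%), and these counts carry no test. They include 5 named genes that were higher (TNC, TMEM120A, ADIPOQ, TNMD and MYOC). Another 4 were lower (ANKRD1 on 2 probe sets, HOXC6, GPX2 and ARMC6), and 7 probe sets had no gene name. The signal limit bears on both counts. TNC, ADIPOQ, TNMD and the unnamed probe sets that were higher reached 200 only in SM or ST. HOXC6, ARMC6, an ANKRD1 probe set and an unnamed one that was lower reached it only in LD. A difference of at least 2-fold from LD was found on 43 probe sets for SM and 76 for ST, and 60 probe sets differed that much between SM and ST. Both comparisons use the same LD arrays, so they share whatever those arrays hold.

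**Figure D1:**
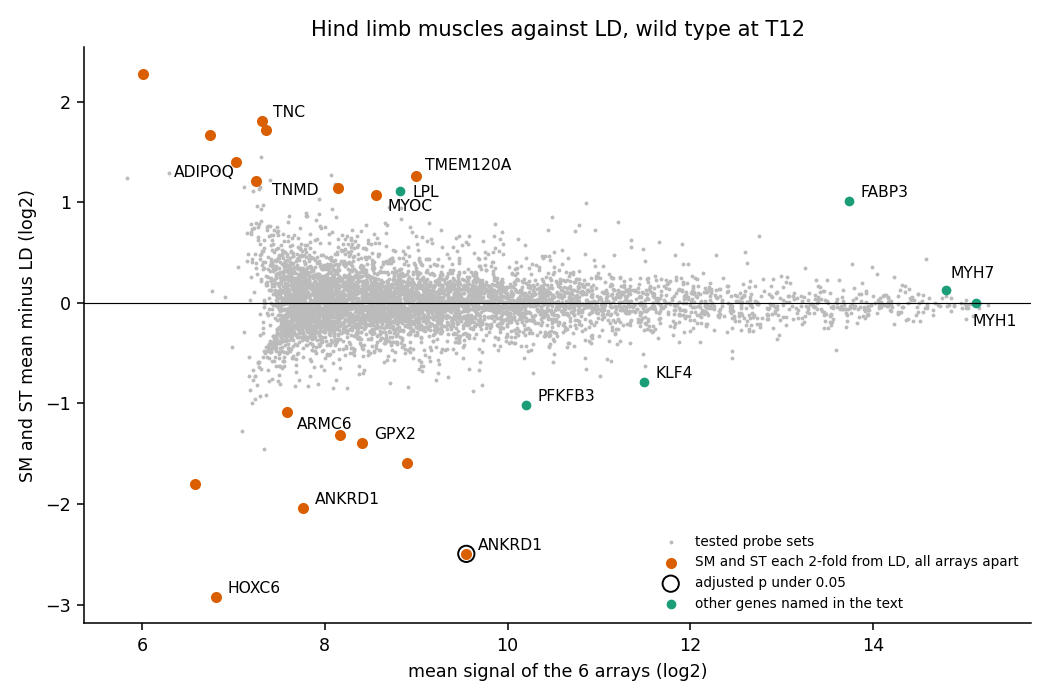
Log2 difference between the mean of SM and ST and LD (vertical axis) against mean log2 signal of the 6 arrays (horizontal axis), 1 point per tested probe set. Orange points are the 17 probe sets on which SM and ST each lie at least 2-fold from LD with all arrays apart, the ringed point is the ANKRD1 probe set past the adjusted threshold at −2.50, and most other points lie close to 0.

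ANKRD1 encodes the cardiac ankyrin repeat protein, which binds the giant spring protein titin and is known to be induced in muscle by stretch and by loss of nerve supply. Its signal was 507.7 and 486.8 in SM and 311.5 and 407.0 in ST, against 2324.1 and 2424.5 in LD. Every hind limb array lay far below both LD arrays. The difference was −2.50 ± 0.28 (log2, SE, 2 muscles against 1, limma adjusted p = 0.0235), so ANKRD1 fell 5.64-fold below LD in the hind limb muscles. A second probe set for ANKRD1 read 206.1 and 135.3 in SM and 114.9 and 105.1 in ST, against 594.6 and 520.0 in LD. It gave −2.04 ± 0.36 with limma adjusted p = 0.324, so it did not pass. The high level was shared by the other LD groups of the same age, which had signals of 1845 in CC, 2429 in NC and 1562 in CN. SS read 163 in NN and 161 in CN lambs, below SM and ST. Newborn LD of the 4 genotypes read 3388 to 6310. With LD of CC and NC lambs in place of NN, the difference was −2.33 ± 0.23 (limma adjusted p = 0.00346). ANKRD1 did not pass when SM was set against LD without ST, at −2.26 (limma adjusted p = 0.283), nor without the trend of variance with signal (limma adjusted p = 0.089).

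**Figure D2:**
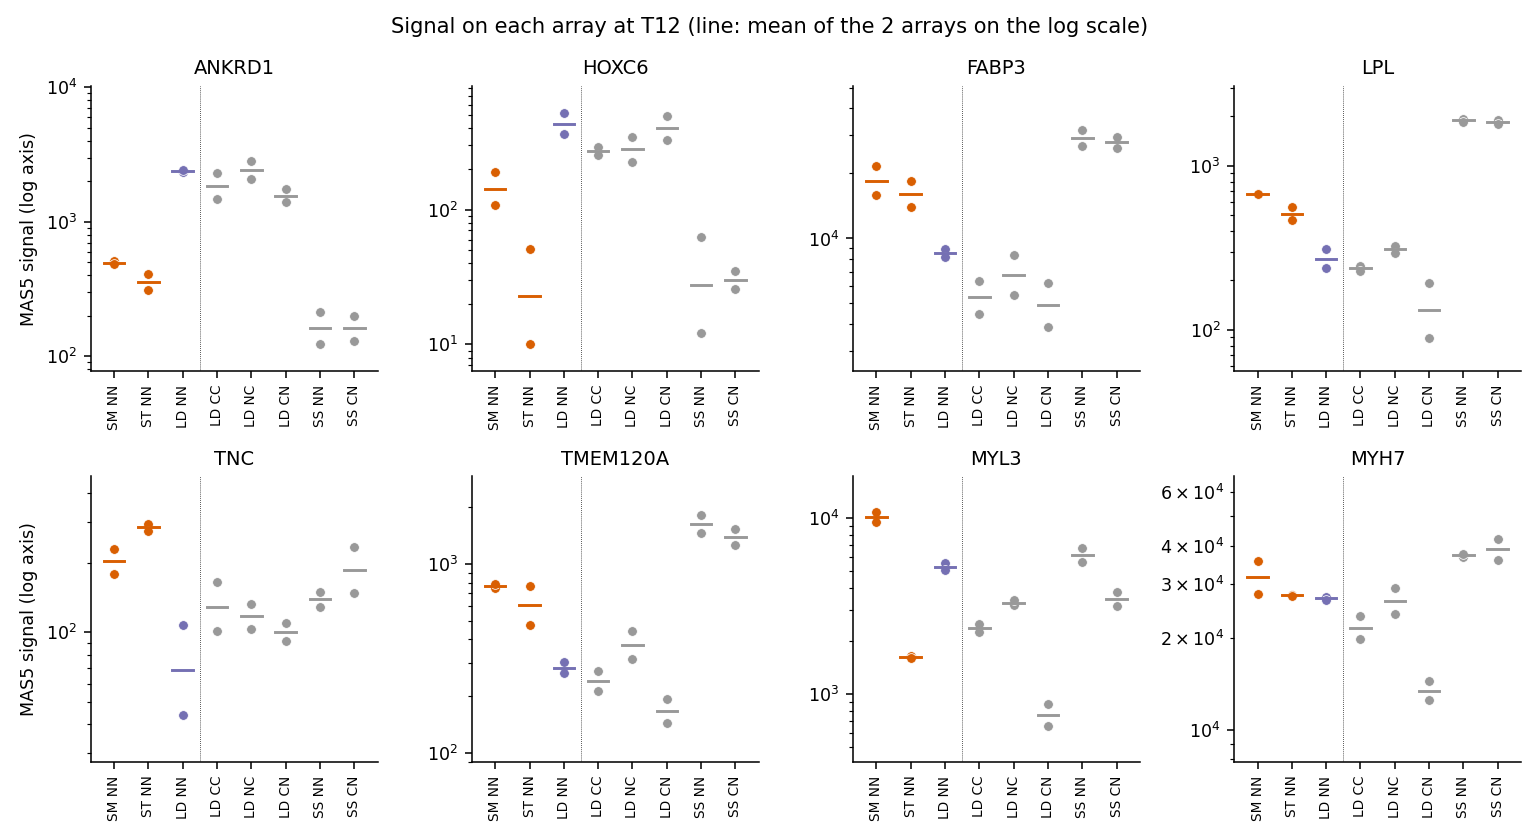
MAS5 signal on each array at T12 for 8 genes (log axis, arbitrary units), with SM and ST of NN lambs in orange, LD of NN lambs in purple and other groups in grey to the right of the dotted line. Each point is an array and each line the mean of the 2 technical arrays on the log scale. ANKRD1 and HOXC6 were low in SM and ST, FABP3, LPL, TNC and TMEM120A were high, and MYL3 lay on opposite sides of LD of NN lambs.

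Homeobox genes record position along the body axis. HOXC6, a homeobox factor of the trunk and upper limb level, had signals of 108.0 and 190.2 in SM and 10.1 and 51.4 in ST, against 517.0 and 365.1 in LD. All hind limb arrays lay below both LD arrays, and ST lay below SM. The log2 difference was −2.93 ± 0.77 with limma adjusted p = 0.999, and the wide error comes with the gap of 2.65 on the log2 scale between SM and ST. Fitted with SM and ST as separate cells, the same difference passed (limma adjusted p = 0.00772). LD of the other genotypes read 272 in CC, 281 in NC and 401 in CN, and SS read 27.6 in NN and 30.1 in CN lambs. At signals in the range of the ST and SS arrays, which lie near or under the array medians, the size of the gap is uncertain.

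None of the other position genes passed the test. Of 68 genes on this list 7 were measured, of which 5 were higher than LD in both SM and ST and 1, HOXC6, was lower in both, beside 31.7% and 28.3% of all genes measured. The signal limit bears on these counts, since 3 of the 7 (MEIS2, HOXA4 and IRX3) passed it only through SM or ST and 1 (HOXC6) only through LD. MEIS2, a partner of HOX proteins, read 269.4 and 289.1 in SM and 267.7 and 337.0 in ST, against 141.8 and 188.6 in LD. It lay higher on every hind limb array, at 0.82 ± 0.23 (limma adjusted p = 0.999). HOXA10 was also higher on all 4 arrays, with 486 in SM and 498 in ST against 391 in LD. HOXA9 had a signal of 1129 in SM and 667 in ST against 578 in LD, and LD of the CC and NC genotypes read 462 and 560. HOXA4 at 0.67 ± 0.35 and HOXA5 at 0.09 ± 0.20 had arrays that overlapped with LD. The HOXA4 value was 0.075 without LD replicate 2 and 1.27 without LD replicate 1. IRX3, an Iroquois homeobox factor, read 429.8 and 518.6 in ST but 69.2 and 36.4 in SM, against 70.1 and 54.0 in LD. Only ST stood out for IRX3 among the muscles at T12, where every other group lay between 43.8 and 87.9. Newborn LD read 403 in CC and 163 in CN lambs.

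Several genes of lipid uptake read about 2-fold higher in the hind limb muscles, without passing the test. FABP3, the heart and muscle form of fatty acid binding protein, had signals of 15824.1 and 21716.5 in SM and 13927.9 and 18535.1 in ST, against 8946.3 and 8204.6 in LD. Every SM and ST array was above both LD arrays, and the difference was 1.01 ± 0.16, a fold of 2.01 (limma adjusted p = 0.284). FABP3 did not pass in this fit. It passed after quantile normalization at 1.05 (limma adjusted p = 0.0302), without ST replicate 1 at 1.11 (limma adjusted p = 0.0385), and with LD of CC and NC in place of NN at 1.52 (limma adjusted p = 0.00256). The LD signals of those genotypes were 5338 and 6752, and CN read 4914. SS lay above all of them, at 29203 in NN lambs. LPL, lipoprotein lipase, which releases fatty acids from circulating triglyceride, had signals of 672.6 and 677.0 in SM and 557.2 and 468.4 in ST, against 237.9 and 311.1 in LD. It was higher on all 4 arrays by 1.11 ± 0.27 (limma adjusted p = 0.877), and SS again lay higher, at 1889.

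Of 25 measured genes of fatty acid uptake and oxidation, 11 were higher than LD in both SM and ST and 6 lower in both, and 7 were higher on all 4 arrays and 0 lower. Over all 3568 genes, 31.7% were higher in both muscles and 28.3% lower in both. All 4 arrays lay above both LD arrays on 6.96% of all tested probe sets and below on 6.11%. The list's median difference was 0.10, against −0.00 for all tested probe sets, with 0.19 in SM and −0.02 in ST taken singly. By limma 0 members passed and 3 had an unadjusted p under 0.05. A few genes were picked after their values were seen. DECR1, a mitochondrial enzyme of unsaturated fatty acid oxidation, was 0.54 ± 0.22 higher and CPT1B, the muscle gate for fatty acid entry into mitochondria, 0.38 ± 0.18. AQP7, a channel for glycerol, was 0.70 ± 0.20 higher, with 369.8 and 583.2 in SM and 445.4 and 551.4 in ST, against 329.8 and 265.6 in LD. PPARGC1A, a coactivator of mitochondrial genes, gave 0.52 ± 0.30, with 618 in ST and 393 in SM against 344 in LD. LIPE, hormone-sensitive lipase, gave 0.38 ± 0.25 with arrays that overlapped, and 0.18 to 0.57 as each array was left out. None of these passed the adjusted test.

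Of 5 measured adipocyte genes 3 (FABP4, LIPE and CD36) also stand in the lipid list, and 2 (ADIPOQ and FABP4) passed the signal limit only through SM or ST. No test compared the lists, and no adipocyte gene passed limma's adjusted test. ADIPOQ, the fat cell hormone adiponectin, had signals of 194.0 and 179.7 in SM and 243.9 and 191.2 in ST, against 104.9 and 71.9 in LD (1.21 ± 0.43, limma adjusted p = 0.999). FABP4, the fat cell form of fatty acid binding protein, read 223.5 and 284.1 in SM and 476.7 and 576.8 in ST, against 131.4 and 195.3 in LD (1.18 ± 0.72, limma adjusted p = 0.999). Both were higher on every hind limb array. The summed signal of the 4 adipocyte markers on the array (ADIPOQ, LEP, CIDEC and PPARG) was 344.3 to 414.3 in SM and 407.3 to 495.6 in ST, against 208.2 to 254.5 in LD, with 3 of 4 higher and LEP lower. CIDEC and LEP lay at or under 66.7 in all 3 muscles. The part of fat cells in the lipid result was not tested, and more cells of a type cannot be told apart from more RNA per cell in whole muscle. TMEM120A, a membrane protein known from fat cell differentiation, had signals of 751.6 and 786.0 in SM and 477.4 and 768.9 in ST, against 305.1 and 264.2 in LD. It lay higher on all arrays by 1.27 ± 0.27 (limma adjusted p = 0.705), and SS read 1628 in NN lambs.

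Most measured connective tissue genes read higher in the hind limb muscles, without passing the test. Of 30 measured genes of fibroblasts, tendon and matrix, 25 were higher than LD in both SM and ST and 5 lower in both. The signal limit bears on this count, since 7 of them (TNC, TNMD, DPT, COL12A1, ASPN, POSTN and TCF7L2) passed it only through SM or ST. Such a gene had to be higher than LD in SM or in ST, though not in both. Of the 23 that passed the limit in LD as well, 18 were higher in both muscles and 5 lower in both. Over all 30 genes, all 4 hind limb arrays lay above both LD arrays for 15 and below for 1, beside 6.96% and 6.11% of all tested probe sets. The 15 include TNC, TNMD, DPT, COL12A1 and ASPN, which passed the limit only through SM or ST. The median difference of the 30 was 0.40, with 0.32 for SM and 0.47 for ST. By limma 0 members passed and 7 had an unadjusted p under 0.05. With LD of CC and NC in place of NN the median was 0.19, so its size rests in part on the NN LD arrays.

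TNC, the matrix glycoprotein tenascin-C of tendon and muscle ends, read 179.5 and 229.3 in SM and 296.2 and 275.5 in ST, against 108.1 and 43.9 in LD (1.81 ± 0.39, limma adjusted p = 0.705). The 2 LD repeats differed by more than 2-fold, and the difference was 1.16 without LD replicate 2 and 2.46 without LD replicate 1. TNMD, the tendon marker tenomodulin, read 303.4 and 460.9 in SM and 335.9 and 396.3 in ST, against 157.3 and 177.4 in LD (1.14 ± 0.52, limma adjusted p = 0.999). All hind limb arrays were above LD of NN lambs. LD of CC lambs read 572, above both hind limb muscles, and LD of NC lambs 187. DPT, dermatopontin, had signals of 165 in SM and 232 in ST against 103 in LD, a difference of 0.93 ± 0.34 (limma adjusted p = 0.999). Other members, picked after their values were seen, were also higher on all arrays. FBLN1, the matrix protein fibulin-1, had signals of 454.2 and 660.2 in SM and 544.8 and 563.0 in ST, against 302.7 and 317.2 in LD (0.83 ± 0.18, limma adjusted p = 0.705). COL12A1 and FN1, for a collagen that coats fibrils and for fibronectin, gave 0.88 ± 0.26 and 0.67 ± 0.26.

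The main fibrillar collagens did not follow TNC and TNMD. COL1A1, the major collagen chain of tendon, was lower on every hind limb array, with 2479.2 and 3302.8 in SM and 3743.2 and 4010.2 in ST, against 4145.4 and 4150.5 in LD. Its difference was −0.32 ± 0.28. COL1A2 at 0.15 ± 0.16 and COL3A1 at 0.18 ± 0.13 had small differences and none of the 3 collagens passed the test. DCN, decorin, gave 0.26 ± 0.15 and THBS4, a thrombospondin of tendon, 0.47 ± 0.18. The summed signal of the 8 fibroblast and tendon markers was 49227 to 56288 in SM and 49061 to 52763 in ST, against 42438 to 48488 in LD, and 7 of 8 were higher. The part of connective tissue content in these differences was not tested. MYOC, myocilin, a secreted glycoprotein best known from the eye, stood outside the list and was higher on all arrays, with 475 in SM and 489 in ST against 230 in LD (1.07 ± 0.33, limma adjusted p = 0.999).

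**Figure D3:**
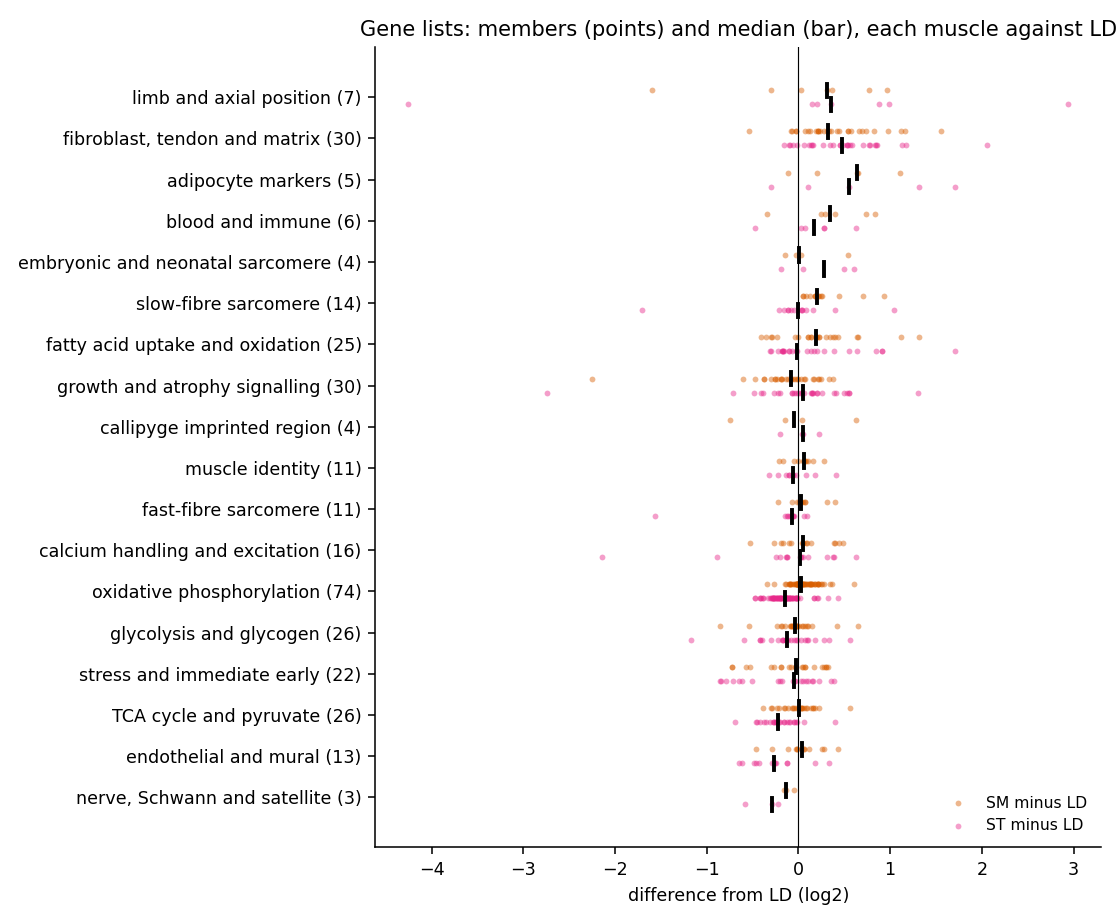
Log2 difference from LD for each measured member of 18 gene lists, with SM (orange) and ST (pink) on separate lines and a black bar at the median of each. The number of measured members stands in brackets. The matrix list lies to the right in both muscles (medians 0.32 and 0.47), while the TCA cycle and oxidative phosphorylation lists lie to the left only in ST.

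Most sarcomere genes, read from their brightest probe set, gave differences near 0 between the hind limb muscles and LD. Probe sets of ATP2A2, PLN and MYL3 gave larger ones, and none passed the test. MYH7, the slow myosin heavy chain, had signals of 27858.9 and 35779.5 in SM and 27726.6 and 27380.7 in ST, against 27180.6 and 26694.1 in LD. The hind limb arrays all lay above LD, but by 0.13 ± 0.14 (limma adjusted p = 0.999), and a second MYH7 probe set gave −0.27. MYH1, a fast myosin heavy chain, had 37652 in SM and 34275 in ST against 35906 in LD, a difference of 0.00 ± 0.13. The 5 other MYH1 probe sets gave −0.22 to 0.03, and myosin genes are alike in sequence, so probes may read several of them. Slow troponins TNNT1 and TNNC1 gave 0.11 ± 0.13 and 0.08 ± 0.14. Fast troponins TNNT3, TNNI2 and TNNC2 gave −0.01 ± 0.11, −0.05 ± 0.11 and −0.01 ± 0.10. The calcium pumps ATP2A2 of slow fibres and ATP2A1 of fast fibres gave 0.13 ± 0.13 and −0.00 ± 0.12 on their brightest probe sets. The 3 other ATP2A2 probe sets gave 0.13, 0.36 and 0.77 ± 0.30, the last pair higher on all 4 arrays, and none passed the test. MYL2, the slow regulatory light chain, gave 0.07 ± 0.15 and TPM3, the slow tropomyosin, −0.02 ± 0.19. Myoglobin (MB) gave 0.02 ± 0.19 and ACTN3, the fast-fibre actinin, −0.14 ± 0.15. The signals of MYH1 on its brightest probe set lay close to the highest signal on each of the 6 arrays, which was 34081.9 to 44831.0. TNNC2 (31100.4 to 38792.7), TNNI2 (30485.5 to 37967.5) and TNNT3 (30599.0 to 35996.4) also lay near it on these arrays. MYH7 read 26694.1 to 35779.5 and MYL2 24488.8 to 35385.9. Whether differences are compressed at such signals was not tested, so values near 0 for these genes do not show equal levels.

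Of 14 measured slow-fibre genes 7 were higher than LD in both SM and ST and 0 lower in both, with a median of 0.10, made of 0.20 in SM and −0.01 in ST. That median was 0.30 with LD of CC and NC in place of NN and 0.020, 0.037 and 0.028 without replicate 2 of SM, of ST and of LD, each left out in turn. Of 11 fast-fibre genes 1 was higher in both and 2 lower in both, with a median of −0.01. By limma 0 genes of either list passed and 0 had an unadjusted p under 0.05. PLN, phospholamban, which restrains the slow calcium pump, stood out among slow genes. Its signal was 3958.6 and 2756.5 in SM and 2804.2 and 2545.5 in ST, against 2024.5 and 2016.8 in LD, higher on all arrays. The difference was 0.56 ± 0.31 (limma adjusted p = 0.999), and its 2 other probe sets gave 0.71 and 0.73. SS, at 6864 in NN lambs, was higher still. LMCD1, a LIM domain protein of muscle, gave 0.65 ± 0.35, with 1056 in ST and 613 in SM against 513 in LD.

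**Figure D4:**
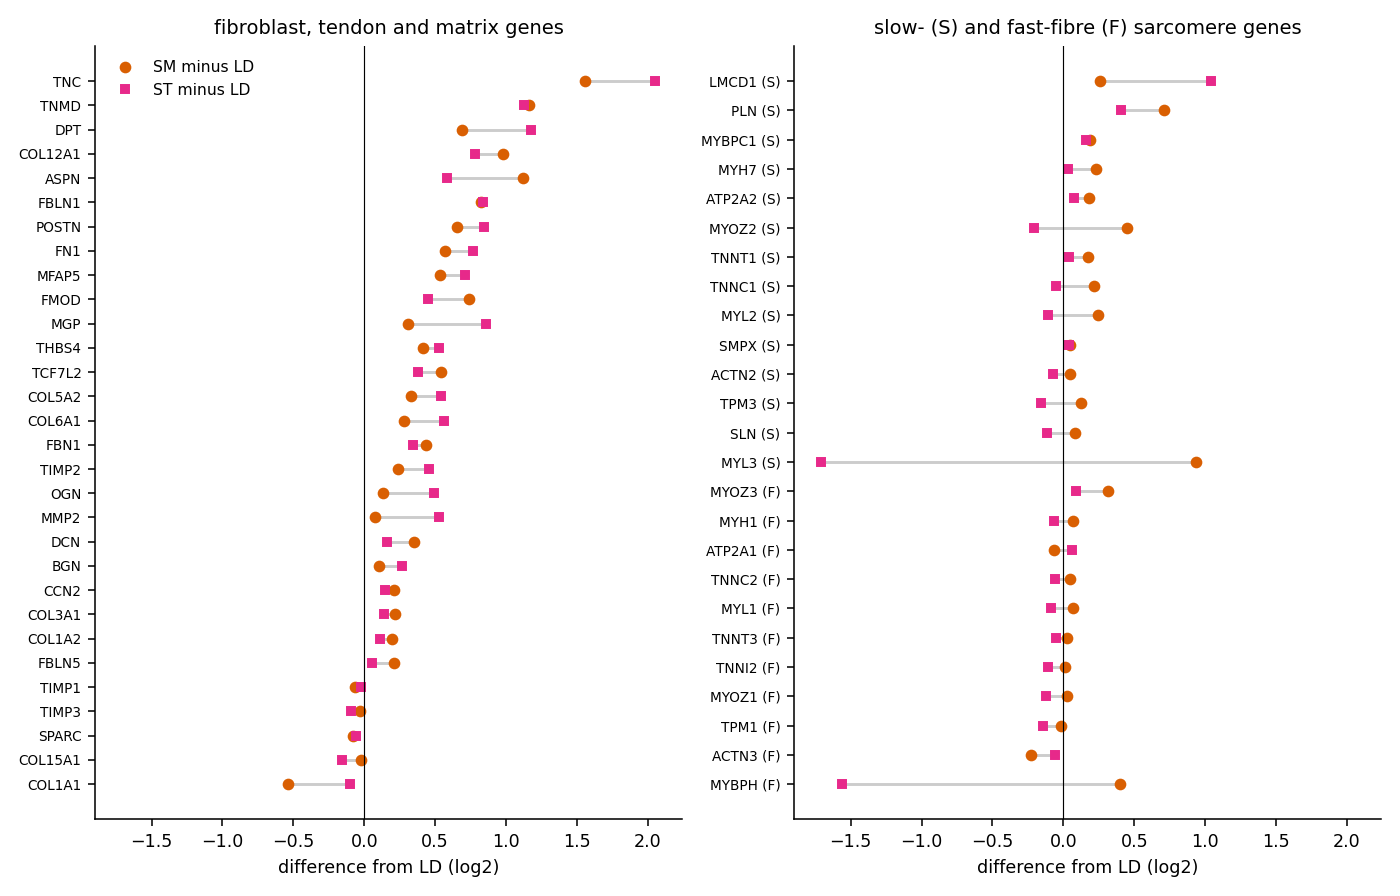
Log2 difference from LD of each measured member of the matrix list (left) and of the slow (S) and fast (F) sarcomere lists (right), with SM as circles and ST as squares. Most matrix genes lie right of 0 in both muscles, while most sarcomere genes lie near 0 and MYL3 and MYBPH lie far apart in SM and ST.

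SM and ST differed widely for a few muscle genes, so their mean says little. MYL3, the essential myosin light chain of slow fibres, read 9478.2 and 10801.2 in SM and 1648.3 and 1588.6 in ST, against 5562.7 and 5042.5 in LD. SM lay 0.93 above LD and ST 1.71 below it on the log2 scale, with no overlap of arrays. LD of the other genotypes read lower than in NN lambs, at 2370 in CC, 3293 in NC and 756 in CN. RCAN1, an inhibitor of the phosphatase calcineurin, read 268.0 and 269.8 in ST and 1951.9 and 1233.1 in SM, against 963.7 and 1452.6 in LD. ST alone was −2.14 from LD (limma adjusted p = 0.0480), while the SM arrays overlapped with LD. MYBPH, a myosin binding protein, had a signal of 3882 in SM and 999 in ST against 2947 in LD. Its SM arrays overlapped with LD, and a second probe set put SM 0.06 and ST −1.59 from LD. CD36, a carrier for fatty acid uptake, was picked after its values were seen. It read 4397.7 and 5326.7 in SM and 2619.5 and 2455.6 in ST, against 3254.7 and 2971.8 in LD. It too lay on opposite sides of LD of NN lambs. LD of CC, NC and CN lambs read 2223, 2609 and 1577, so ST did not lie below all LD groups.

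The medians of 3 energy metabolism lists lay slightly below 0 in ST and nearer to 0 in SM. Of 26 TCA cycle and pyruvate genes 1 was higher than LD in both muscles and 12 lower in both, with a median of −0.12 made of 0.01 in SM and −0.23 in ST. Of 74 oxidative phosphorylation genes 6 were higher and 24 lower in both (32.4%, beside 28.3% of all genes), with medians of 0.02 in SM and −0.15 in ST. Of 26 glycolysis and glycogen genes 4 were higher and 13 lower in both, with medians of −0.03 and −0.12. No member of these lists passed limma's adjusted test, and 1, 0 and 2 members had an unadjusted p under 0.05. The oxidative phosphorylation and glycolysis medians were 0.0052 and 0.014 without LD replicate 1, and the first was 0.024 without ST replicate 1. The sign of each rests on those arrays. PFKFB3, which makes the activator of the key glycolytic kinase, read 1346.7 and 801.8 in SM and 985.7 and 707.6 in ST, against 1440.3 and 2465.4 in LD. Its arrays did not overlap, although SM replicate 1 came close, and the difference was −1.02 ± 0.24 (limma adjusted p = 0.877). It was −1.40 to −0.63 as each array was left out. LD of the other genotypes read 1192 in CC, 1355 in NC and 2437 in CN. With LD of CC and NC in place of NN the difference was −0.45, so its size rests in part on the NN LD arrays. LDHB, the lactate dehydrogenase subunit of oxidative muscle, was higher on all arrays, with 1779 in SM and 1373 in ST against 1135 in LD (0.46 ± 0.33). SUCLA2, a subunit of the TCA cycle enzyme succinyl-CoA synthetase, was lower on all arrays at −0.36 ± 0.14, and PDK2, a brake on pyruvate dehydrogenase, at −0.29 ± 0.19. DLD, a subunit shared by mitochondrial dehydrogenases, gave −0.30 ± 0.31, and ATP5ME, a subunit of ATP synthase, −0.28 ± 0.19, both with arrays that overlapped.

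Several immediate early genes read lower on every hind limb array, with none past the main test. Of 22 stress and immediate early genes 5 were higher than LD in both muscles and 8 lower in both, and 4 were lower on all arrays, against 6.11% of all tested probe sets. The median was −0.07. KLF4, a zinc finger factor of the early response, read 2469.2 and 2535.1 in SM and 2115.7 and 2530.5 in ST, against 3865.6 and 4450.7 in LD (−0.79 ± 0.19, limma adjusted p = 0.877). LD of the other genotypes, at 2556 in CC, 2047 in NC and 2301 in CN, did not share the high NN value, and against CC and NC the difference was 0.073. KLF4 passed with all 24 arrays fitted singly, without and with the replicate block (limma adjusted p = 0.0236 and 0.0211). Those fits enter technical arrays as separate values, with fitted correlations of 0.17 and 0.21 within a pair. They have 16 and 15 residual degrees of freedom, against 4 in the main fit, so they are less strict. EGR1 at −0.67 ± 0.48 and IER2 at −0.54 ± 0.26, early response genes, were also lower on all arrays. Of genes picked after their values were seen, JUND, a subunit of the AP-1 factor, read 2529 in SM and 2568 in ST against 3636 in LD (−0.51 ± 0.17). TGFBR2, a receptor for TGF-beta, read 446.1 and 577.2 in SM and 539.3 and 447.2 in ST, against 862.4 and 841.2 in LD (−0.77 ± 0.19, limma adjusted p = 0.877). The CC and NC genotypes read 632 and 520 in LD, closer to the hind limb values.

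GPX2, a selenium-dependent glutathione peroxidase, had signals of 334.5 and 303.5 in SM and 173.1 and 209.2 in ST, against 626.7 and 666.4 in LD of NN lambs. That gap of −1.39 ± 0.57 (limma adjusted p = 0.999) was not shared by LD of the CC, NC and CN genotypes, which read 182, 277 and 102. ARMC6 read 100.1 and 223.8 in SM and 94.8 and 237.9 in ST, against 338.1 and 298.0 in LD, and its repeats within SM and within ST differed by more than 2-fold. Among the 7 probe sets without a gene name, the one of smallest unadjusted p read 288.0 and 316.8 in SM and 374.7 and 352.3 in ST, against 1040.0 and 962.7 in LD (−1.59 ± 0.28, limma adjusted p = 0.324). LD of CC and NC lambs read 1407 and 836, and SS of NN lambs 344, so the 3 LD groups lay together above the limb muscles. Against LD of CC and NC it passed at −1.71 (limma adjusted p = 0.0413).

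Of the genes chosen after their values were seen, KCNMA1 and ITGB1BP2 gave the same direction on every probe set. KCNMA1, the pore subunit of a potassium channel opened by calcium, read 569.1 and 341.7 in SM and 465.5 and 422.2 in ST, against 277.5 and 308.2 in LD. Its 3 probe sets gave 0.60, 0.86 and 0.97, and arrays of the one at 0.86 overlapped with LD. ITGB1BP2, the muscle integrin-binding protein melusin, read 2353.0 and 3093.9 in SM and 2811.4 and 3283.6 in ST, against 1630.6 and 1641.3 in LD. Its 2 probe sets gave 0.81 and 0.99. No probe set of either gene passed the test, and LD of CC lambs, at 2338 for ITGB1BP2, lay close to the hind limb values.

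No measured marker of another cell type passed the test, and immune markers summed higher in SM and ST than in LD. Many markers on the array lay under the signal limit and were not tested. It was reached by 1 of 5 immune, 1 of 4 adipocyte and 0 of 3 red blood cell markers. For fibroblast and tendon markers it was 7 of 8, and for endothelial and mural ones 5 of 6. Of 6 measured blood and immune genes 5 were higher than LD in both muscles and 1 lower in both, with a median of 0.25 (0.57 with LD of CC and NC), and 1 had an unadjusted p under 0.05 by limma while 0 passed. C1QA, a complement subunit made by macrophages, read 254.1 and 203.3 in SM and 167.0 and 265.4 in ST, against 116.1 and 160.0 in LD. BOLA-DRA, a class II antigen-presenting chain, gave 0.56 ± 0.30 with arrays that overlapped. CD3E, a T cell chain, was lower on all arrays at −0.41 ± 0.41. C1QA passed the signal limit only through SM or ST and CD3E only through LD. The 4 list members that passed it on both sides were higher in both muscles. The lysosomal proteases CTSS and CTSZ, picked after their values were seen, were higher on all arrays at 1.03 ± 0.31 and 0.89 ± 0.28. The summed signal of the 5 immune markers on the array was 551.6 to 555.8 in SM and 482.2 to 537.6 in ST, against 372.9 to 407.2 in LD. PTPRC, the marker of all white blood cells, was at most 28.9 in SM, ST and LD. It was the marker that was lower, at 26.2 in SM and 21.8 in ST. CD68 read 114.4 in SM and 125.4 in ST against 117.5 in LD. Red blood cell markers overlapped, with sums of 120.1 to 151.1 in SM and 115.7 to 118.0 in ST, against 79.5 to 166.9 in LD.

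Of 13 endothelial and mural genes 2 were higher in both muscles and 6 lower in both, with medians of 0.03 in SM and −0.27 in ST. By limma 0 passed and 0 had an unadjusted p under 0.05, and against LD of CC and NC the list's median was 0.13. PECAM1, the endothelial adhesion protein, had 1556 in SM and 1024 in ST against 1573 in LD. VEGFA, the vessel growth factor, gave −0.29 ± 0.18 and MYH11, the smooth muscle myosin, 0.38 ± 0.32. The 3 measured members of the nerve, Schwann cell and satellite cell list (MYOG, MYF6 and S100B) were all slightly lower in both muscles, at −0.37, −0.21 and −0.14. They do not stand for satellite cells. Of the satellite cell markers, PAX7 and CDH15 are not on the array. MYF5 read 5.8 in SM, 10.2 in ST and 20.8 in LD, under the signal limit.

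Growth, calcium and imprinted genes were centred on LD. Of 30 growth and atrophy genes 6 were higher and 9 lower in both muscles, with a median of −0.00, and ANKRD1 was the 1 member that passed. IGF2, a growth factor, gave 0.26 ± 0.23 with arrays that overlapped. Among 16 calcium handling genes, with a median of −0.03, MEF2C, a muscle transcription factor, gave 0.51 ± 0.35 (0.21 to 0.81 as each array was left out) and PPP3CB, a catalytic subunit of calcineurin, −0.25 ± 0.27. Of the callipyge region, DLK1 had a signal of 945 in SM and 1082 in ST against 1044 in LD, a difference of −0.05 ± 0.47. MEG3, the maternally expressed RNA of that region, read 282.5 and 296.1 in SM and 414.3 and 431.3 in ST, against 534.6 and 439.7 in LD, lower on every array by a narrow margin (−0.47 ± 0.79). Newborn LD enters that error, and there MEG3 read 2551 in CC and 2915 in NC against 518 in NN lambs. A second MEG3 probe set gave −0.24, with ST 0.12 above LD and ST arrays that overlapped with LD. PPP2R5C, a phosphatase subunit of the same list, gave 0.43 ± 0.24 with arrays that overlapped. The 11 muscle identity genes had a median of −0.01, with TCAP, the titin cap protein, highest at 0.29 ± 0.29. Among 4 embryonic and neonatal sarcomere genes, MYH8, the perinatal myosin, was higher on all arrays. It read 249 in SM and 260 in ST against 171 in LD (0.57 ± 0.67). Newborn LD, which enters that error, read 401 in CC, 702 in NC and 1969 in NN lambs.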

How the data were processed

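The deposited values are intensity on a linear scale, computed by the authors with MAS5, per the submitters' processing notes. The software version was not stated there. Each array had a 2% trimmed mean of 200.08 to 200.09. Values at or below 1 were set to 1, log2 was taken, and both technical arrays of a group were averaged. The 12 group values entered a limma 3.58.1 fit in R 4.3.3 with 8 cells, SM and ST in one and LD of NN lambs at T12 in its own. LD of CC and NC lambs at T12 shared a cell, and newborn LD of CC, NC and NN lambs shared another. Variances were moderated with a trend on signal (4 residual degrees of freedom, prior 5.97). P-values are two-sided, were Benjamini-Hochberg adjusted over 5808 probe sets, and measure the spread between group values, not animals. Few arrays limit the precision.

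Named genes were those past the threshold, filled up from the probe sets at least 2-fold from LD in both muscles, the 3 largest differences in each of 18 lists, and preset fibre, HOX and imprinted genes. A gene was read from its brightest probe set, and 23 genes were added after their values were seen. The comparison, lists and rule were chosen with earlier results of these data known. Symbols are those of the 2016 platform annotation, and 3403 of 3568 occur in RefSeq's gene table for the sheep (assembly ARS-UI_Ramb_v3.0). Coordinates were not used. The fit was tested on simulated data. Alternatives were other signal limits, an offset, quantile normalization, other spreads and LD groups, each muscle alone, blocks and leaving out each array.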

Additional observations from a re-analysis of the deposited data

Results flagged for a closer look

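MYL3 and CD36 lay on opposite sides of LD of NN lambs in the hind limb muscles on every array. The log2 difference of MYL3 was 0.93 in SM and −1.71 in ST, and that of CD36 was 0.64 in SM and −0.29 in ST. LD of CC, NC and CN lambs at T12 read 2223, 2609 and 1577 for CD36, so ST at 2536 was not below all of them. For MYL3 those groups read 2370, 3293 and 756, under NN at 5296. The difference between SM and ST was not tested.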

How the results depend on the processing

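The count of 1 called probe set was the same with a signal limit of 100, 400 or none and with 32 added before log2. It was 2 after quantile normalization, 0 without the intensity trend (229 at an unadjusted p under 0.05), 3 with the spread from the 3 muscles only and 2 with SM and ST as separate cells. It was 4 with LD of CC, NC and NN and 4 with LD of CC and NC, 0 for SM alone (183 at an unadjusted p under 0.05) and 3 for ST alone. Leaving out each array in turn gave 1 to 2. ANKRD1 was among the calls of each setting except those with 0, where it was −2.50 without the trend and −2.26 for SM alone. With the 24 arrays fitted singly and the technical pair as a random block the count was 4. It was also 4 with a replicate block added. Both of these fits enter technical arrays as separate values. Array deviations of the same replicate number correlated at 0.334 between SM and ST. The correlation was −0.171 between SM and LD and −0.081 between ST and LD. The numbers thus did not pair all 3 muscles alike, and an effect shared by SM and ST arrays of one number was not tested.

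Log2 differences of some named genes changed sign, and the cause was not tested. With LD of CC and NC these were GPX2 (0.13), KLF4 (0.073), MYL3 (0.53), CD3E (0.55), MYF6 (0.31), COL1A2 (−0.19), MYH1 (−0.13), MB (−0.048), HOXA5 (−0.028), PPP2R5C (−0.021) and ATP5ME (0.00049). With LD of CC, NC and NN they were MYL3 (0.23), CD3E (0.23), MYF6 (0.14), MYH1 (−0.085), COL1A2 (−0.076) and MB (−0.026). For SM alone they were MYL3 (0.93), MYBPH (0.40), RCAN1 (0.39), IRX3 (−0.29), TPM3 (0.12), DLD (0.080), TNNC2 (0.048), TNNT3 (0.024) and TNNI2 (0.011). For ST alone they were CD36 (−0.29), MYL2 (−0.11), MYH1 (−0.067), MB (−0.065), TNNC1 (−0.050), ATP2A1 (0.060), DLK1 (0.052) and PPP3CB (0.026). After quantile normalization they were TNNC2 (0.018), TNNT3 (0.0065) and ATP2A1 (0.00186). Leaving out each array gave −0.67 to 0.16 for PPP3CB, −0.79 to 0.18 for DLD, −0.10 to 0.011 for DLK1, −0.14 to 0.14 for MYH1 and −0.15 to 0.14 for TNNC2. It gave −0.19 to 0.087 for TNNI2, −0.13 to 0.10 for TNNT3, −0.031 to 0.17 for MYL2, −0.10 to 0.14 for MB and −0.15 to 0.14 for ATP2A1. It gave −0.15 to 0.11 for TPM3 and −0.076 to 0.25 for HOXA5.

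Each muscle is 1 value, so animals cannot be told apart from muscles, and probe sets near the limit of 200 are the noisiest. Sheep RNA was read with bovine probes, and detection calls were not used.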
